A study of Mus musculus with 12 samples.

Results

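Of the 1076 microRNA genes listed in RNA-seq libraries of whole mouse cochleae, 344 averaged 0.5 FPKM or more across 12 libraries and are described here. FPKM are reads scaled to gene length and to the number of mapped reads. The members were selected on their measured level, as all rows whose symbol starts with Mir and a number or with Mirlet, so that level is a description and not a finding. They are 344 of 23945 genes read. A further 23 microRNA genes had a mean above 0 and under 0.5 FPKM, and 709 were listed at 0 in every library. The members just inside the limit were Mir1903, Mir6406 and Mir6417, with means of 0.578, 0.567 and 0.558 FPKM. Mir1946a, Mir147 and Mir3112 lay just outside it, with 0.413, 0.306 and 0.165 FPKM. By length, 340 members were hairpin genes of 54 to 147 nt and 4 were long host transcripts (Mir17hg, Mir22hg, Mir143hg and Mirlet7bhg), which share the symbol but carry the hairpins inside a longer RNA.

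The study asked what the loss of Dusp1, a phosphatase that switches off MAP kinases, does to the ageing cochlea. Wild type (WT) mice and whole-body Dusp1-/- mice (KO) of a mixed 129S2/SvPas:C57BL/6 background were killed at 5 or 8 months of age, with 3 libraries in each of the 4 groups. The WT libraries were E1, E3 and E4 at 5 months and F1, F10 and F12 at 8 months. The KO libraries were E7, F18 and F19 at 5 months and F5, F6 and F27 at 8 months. Males and females were not separated. Nothing in the labels says more on how the 3 animals of a group were related, so p-values measure the spread between these libraries.

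The targeted gene went against the label. Dusp1 stood at 60.8, 47.6 and 29.5 FPKM in E1, E3 and E4 and at 61.9, 81.5 and 75.3 in E7, F18 and F19. At 8 months it was 43.0, 38.3 and 38.6 FPKM in WT and 55.6, 73.7 and 57.1 in KO, so every library labelled KO lay above the WT libraries of its age. KO and WT below therefore mean the libraries labelled so. Hair cell markers summed to 81.0 to 122 FPKM and stria vascularis markers to 608 to 870 FPKM over the 12 libraries. Neutrophil markers, of which 16 of 17 were found, separated the groups at 5 months, with sums of 89.0 to 699 FPKM in WT and 4241 to 23379 in KO. At 8 months they summed to 714 to 4705 FPKM in WT and 924 to 17171 in KO. The depth of the libraries is unknown.

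MicroRNAs are short RNAs that pair with messenger RNAs through a seed near their 5′ end and lower their output. Drosha and Dgcr8 cut a hairpin out of a long primary transcript in the nucleus, Xpo5 exports it, and Dicer1 trims it to the mature form that Ago2 and its relatives hold. Mirtrons skip the Drosha step, since their hairpin is a short intron released by splicing. Those with a tail on the 5′ side reach the splice site at the 3′ end alone. Mature microRNAs carry no polyA tail, so a polyA library does not measure them: its reads at a microRNA gene come from transcripts that span the hairpin. In the ear, Mir96 and its cluster are known from hair cells, and mutation of Mir96 causes deafness.

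Mature sequences from RefSeq (GRCm38.p6) were found for 302 of the 344 members. The first set below belongs to the 3 members whose level differed between groups, with the seed (bases 2 to 8) in capitals.
mmu-miR-7067-5p: uGCAGGGGgugguugcacacgga
mmu-miR-7067-3p: uGAUUGCUucccuccccacag
mmu-miR-8116: aAGGAUCCggggcuaguuggc
mmu-miR-760-5p: cCCCUCAGgccaccagagcccgg
mmu-miR-760-3p: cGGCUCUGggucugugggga
No seed of these 3 genes was shared with another member. Among all members 460 distinct seeds were found, of which 30 were held by at least 2 member genes under mature forms of different names. Seeds shared only through a mature form of the same name, as in Mir680-1 and Mir680-2, are not in this count. The largest such group was let-7, whose 7 member genes carry the seed GAGGUAG. The next lines show 4 of its mature forms, which are alike in the seed and differ outside it.
mmu-let-7a-5p: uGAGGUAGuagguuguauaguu
mmu-let-7d-5p: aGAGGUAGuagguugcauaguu
mmu-let-7e-5p: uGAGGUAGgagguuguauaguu
mmu-let-7i-5p: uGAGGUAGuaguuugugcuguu

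Most members were parts of other genes. In the annotation used by the authors (mm9), 157 members lay in an intron of another gene on the same strand, 73 touched an exon of the same strand, 19 an exon of the opposite strand and 16 an intron of the opposite strand, and 79 lay outside all genes other than microRNA genes. The share of microRNA genes that reached 0.5 FPKM differed by position. It was 52.1% of the 140 on a sense exon, 73.1% of the 26 opposite an exon, 30.9% of the 508 in a sense intron, 28.1% of the 57 opposite an intron and 22.9% of the 345 outside. Of the 73 members on a sense exon, 39 lay wholly inside exons and 5 overlapped one by 3 nt or fewer. Whether the counting used strand is not stated, so reads of a gene and of a microRNA gene on its other strand cannot be told apart.

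**Figure D1:**
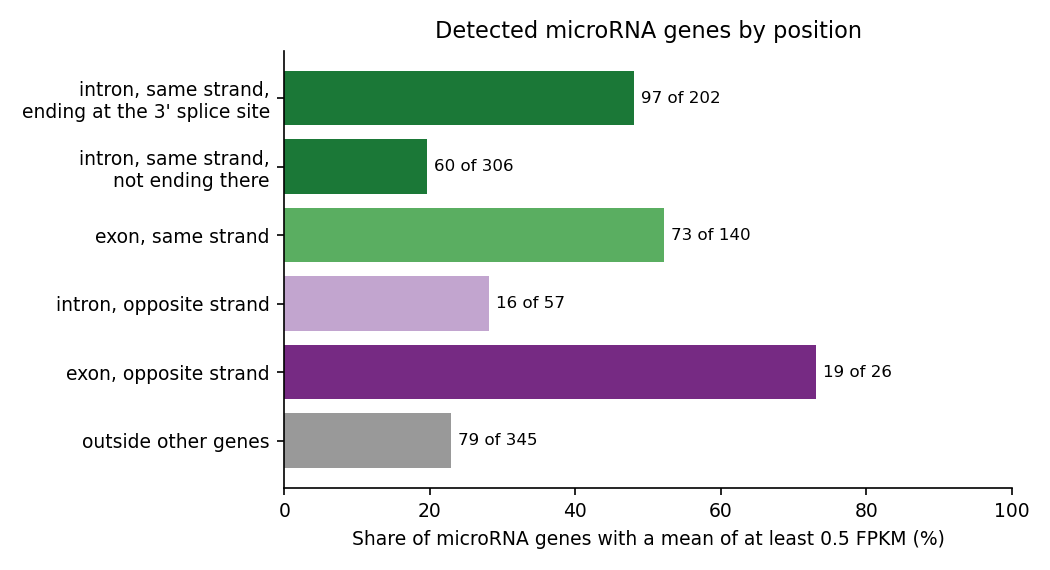
Horizontal axis: share of microRNA genes that averaged 0.5 FPKM or more, in percent of all microRNA genes of that position (member count and total beside each bar). Among genes in a sense intron, 97 of 202 that end at the 3′ splice site were detected against 60 of 306 others.

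Within sense introns, position at the splice site went with detection. Of the 202 microRNA genes whose last base is the last base of the intron, 97 (48.0%) were members, against 60 of the 306 others (19.6%). Their host genes differed in level, with a median of 18.9 FPKM for the first kind and 7.54 FPKM for the second. The share was also higher when hosts of at least 10 FPKM were taken alone, 79 of 150 (52.7%) against 36 of 125 (28.8%), with median host levels of 25.3 and 27.2 FPKM. For hosts under 10 FPKM it was 18 of 52 (34.6%) against 24 of 181 (13.3%). These counts are over genes and describe the annotation, and no test was made on them.

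All 97 members that end at the splice site finish with the bases AG in mm9, the usual end of an intron, as against 12 of the 207 other members with a RefSeq hairpin. A set of 14 members filled the intron from end to end, and all 14 began with GT. They include Mir1982 in Oaz1 (ornithine decarboxylase antizyme), Mir6958 in Dennd6b, Mir7091 in Dnase1l1 and Mir1224 in Vwa5b2. The lines below show the junction in NCBIM37 (the assembly of mm9) for 3 members, with the last 20 bases of the hairpin and the first 10 of the next exon on the transcribed strand and the AG of the splice site in capitals.
Mir7091 in Dnase1l1, chrX:71519356-71519385, minus strand: gtggcttctgtcgtctctAGaatgtgattc
Mir1982 in Oaz1, chr10:80291596-80291625, plus strand: caccctatgttctcccacAGccgccctact
Mir7115 in Arrb2, chr11:70251801-70251830, plus strand: ttggtcccctgcccccacAGtgagacagta
The 97 had a median length of 67 nt and a median of their mean levels of 8.88 FPKM, and 7 of them were seen in every library. The 60 other sense-intron members had a median length of 91.5 nt and a median of 6.76 FPKM, with 3 seen in every library.

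Read numbers could be read for 99 of the 344 members. In these the FPKM fell on whole multiples of a step, taken as the worth of 1 read, within a tolerance of 0.1 of the step. The step ran from 4.37 to 89.2 FPKM and fell with length over genes of 57 to 139 nt. These 99 members held a median of 4 reads over all 12 libraries, from 2 to 26. The rule took multiples up to 6 and asked for 1 read in at least 2 libraries, so it keeps to members with few reads. Another 108 members had a value in too few libraries to find a step, and 137 did not meet the rule. Whole steps were seen in 67 of the 157 sense-intron members and in 8 of the 73 on a sense exon, where reads can be split with the host transcript. The worth of 1 read relative to E1 was 0.915 to 1.06 in the 12 libraries.

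**Figure D2:**
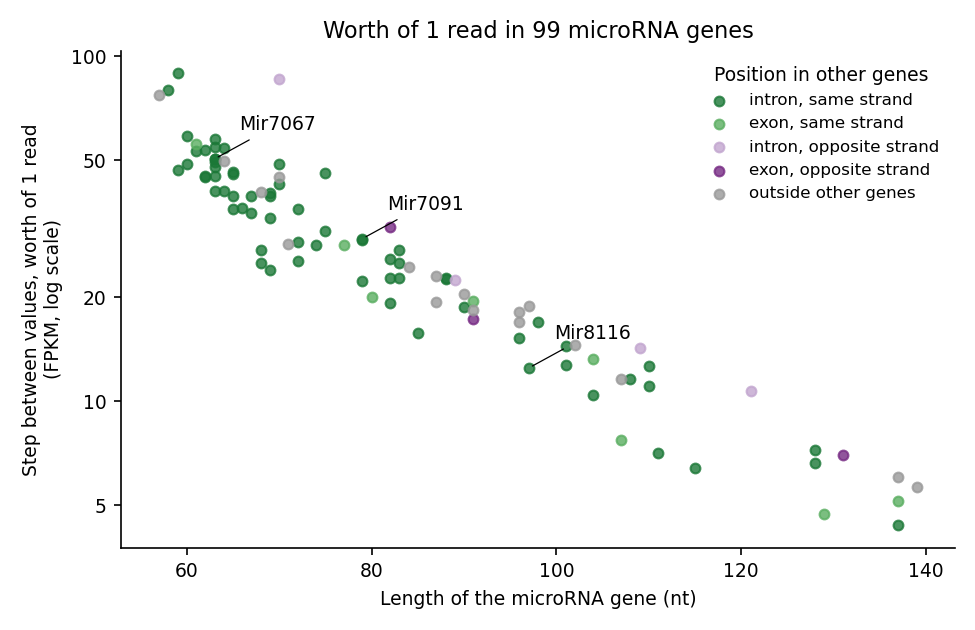
Each point is 1 of the 99 microRNA genes whose values fall on whole multiples of a step; horizontal axis, gene length in nt; vertical axis, the step in FPKM on a log scale; colour, position in other genes. The steps lie between 4.37 and 89.2 FPKM, and short genes have the higher ones.

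At 0.5 FPKM or more, 108 of the 344 members (31.4%) were seen in 1 library alone and 39 (11.3%) in all 12. The members seen in 1 library came from every library, with 4 to 13 of them each. Of the 39 seen throughout, 10 lay in a sense intron, 8 on a sense exon, 10 opposite an exon, 1 opposite an intron and 10 outside other genes. The 4 long host transcripts were all among the 39.

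**Figure D3:**
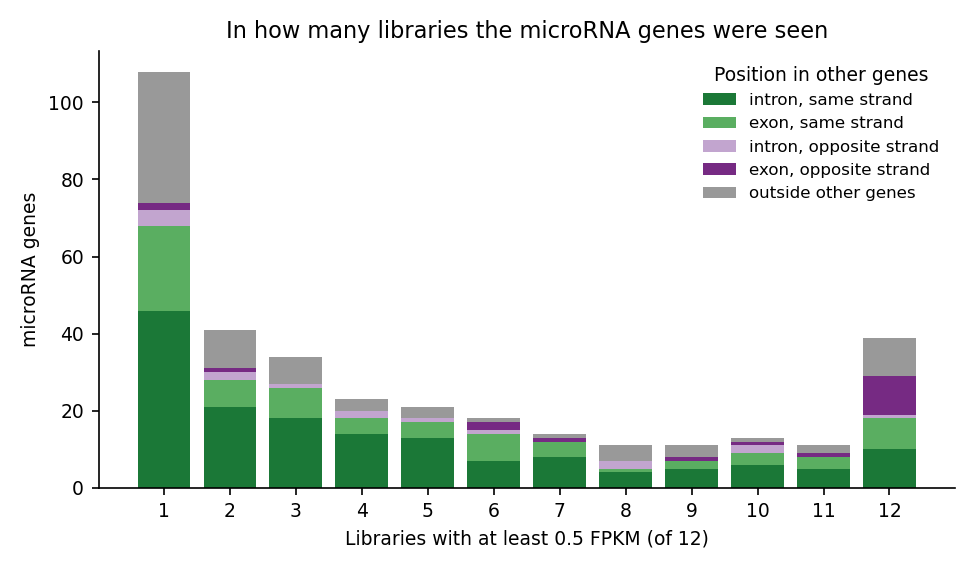
Horizontal axis: number of libraries, of 12, with at least 0.5 FPKM; vertical axis: number of microRNA genes, stacked by position in other genes. The bar at 1 library holds 108 genes and the bar at 12 libraries holds 39.

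The highest level belonged to Mir3064, a 67 nt gene at chr11:106644007-106644073 that shares 1 nt with an exon of Ddx5, an RNA helicase that works with Drosha. It had 7750, 7769 and 6807 FPKM in WT at 5 months, 8058, 6278 and 9145 in KO at 5 months, 8471, 6705 and 6532 in WT at 8 months and 5797, 7361 and 6587 in KO at 8 months. The groups overlapped at both ages. Its mean of 7272 FPKM stood beside 430 FPKM for Ddx5. In members of 57 to 139 nt with a known step, 1 read was worth 4.37 to 89.2 FPKM. The FPKM of a short member and of a longer gene thus cannot be compared as amounts of RNA. The log2 difference of KO minus WT averaged over ages was -0.04 ± 0.13 (SE) for Mir3064 (adjusted p = 0.899, limma) and -0.06 ± 0.06 for Ddx5 (adjusted p = 0.654).

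Mir6236 (chr9:110183791-110183913, 18711 nt from Cspg5) came next with a mean of 1512 FPKM, which 1 library raised. It read 10212 FPKM in F18, a KO library at 5 months, and 252 to 1590 FPKM in the 11 others. F18 also had the most ribosomal precursor RNA, with 1563 FPKM of Rn45s against 127 to 246 elsewhere, and the most of Rmrp (31.7 against 0 to 3.13 FPKM) and Rpph1 (12.9 against 0 to 1.36 FPKM), the RNA parts of the RNases MRP and P. These 3 genes were chosen after the values were seen, and their part in the level of Mir6236 was not tested. The KO minus WT difference of Mir6236 at 5 months was 1.56 ± 0.98 (log2, SE, adjusted p = 0.43, limma).

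The rest of the 12 most abundant members had means of 139.5 to 562 FPKM. Mir686 on an exon of Psmb5, a proteasome subunit, had 276 to 780 FPKM. Mir762, opposite an exon of Bcl7c, had 367 to 732 FPKM, while Bcl7c itself had a mean of 13.2 FPKM. Mir3082, which shares 1 nt with an exon of the ubiquitin ligase gene Stub1, had 244 to 784 FPKM. Mir3960, 116 nt from the kinase gene Cdk9, had 146 to 379 FPKM, and the neighbouring Mir2861 had 21.6 to 107 FPKM. None of the 12 was called between any groups. Mir678 was the least even of them, at 519 FPKM in F5 and near 0 in E4. Mir1982 in Oaz1 had 53.2 to 260 FPKM and Mir7115 in Arrb2 had 50.5 to 311 FPKM.

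**Figure D4:**
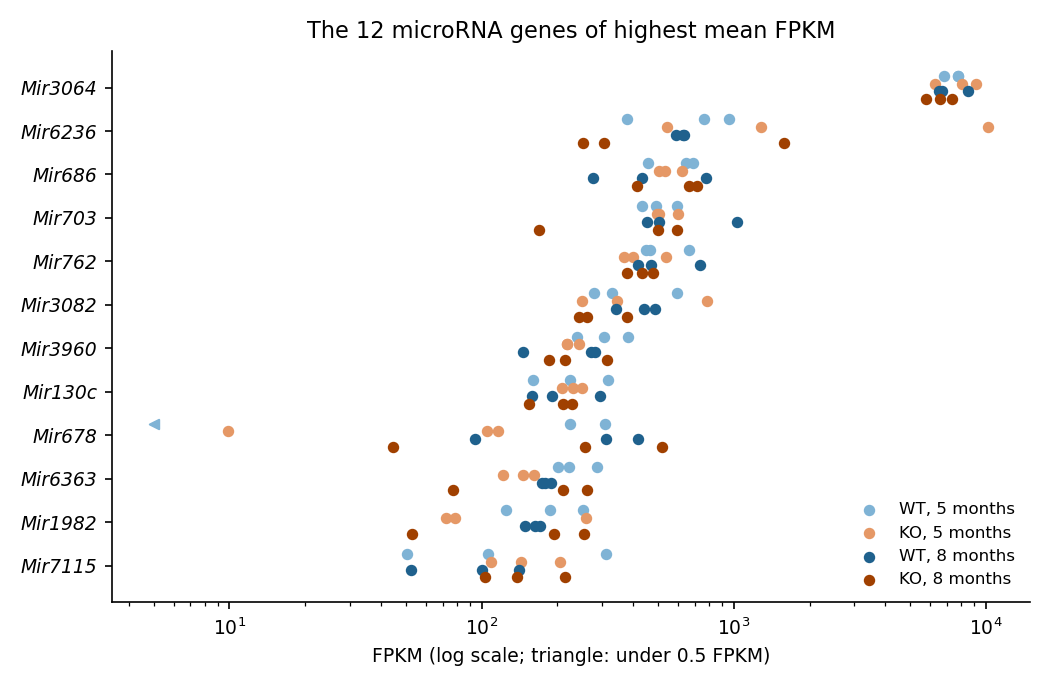
Horizontal axis: FPKM on a log scale; each point is 1 library, coloured by group, for the 12 microRNA genes of highest mean level. Triangles mark values under 5 FPKM, drawn at 5 FPKM, though the axis label gives 0.5 FPKM. The groups overlap for Mir3064, and 1 KO library at 5 months, F18, stands at 10212 FPKM of Mir6236.

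Across all members the comparison of KO with WT called few. At 5 months 3 of the 344 (0.872%) passed an adjusted p of 0.05 in limma over 16276 genes, and 0.0676% of all genes did (0.0246% higher in KO). At 8 months it was 1 of 344 (0.291%) against 0.0123% of all genes, and averaged over both ages 3 of 344 (0.872%) against 0.0799% (0.043% higher in KO). All these calls were higher in KO and came from 3 genes, Mir7067, Mir8116 and Mir760. All 3 were listed at 0 in whole groups, where the log scale gives a spread of 0, and they had 1 to 6 reads a library in the groups above 0 by the step or, for Mir760, values of 5.38 to 15.2 FPKM that did not fall on whole steps. The log2 difference against such a group depends on the added 0.5 FPKM, so no fold is given. A member at 0 in a whole group reached the limit of 0.5 FPKM through the other groups alone, so these counts and p-values are given as a description. At an unadjusted p under 0.05 there were 14 members higher and 7 lower at 5 months (6.1%, and 18.1% of all genes), and 9 higher and 19 lower at 8 months (8.14%, and 5.17% of all genes). KO lay wholly above WT in 11 members at 5 months (3.2%, and 11.3% of all genes) and wholly below in 9 (2.62%, and 13.8%). At 8 months it lay above in 3 (0.872%, and 4.1%) and below in 6 (1.74%, and 6.18%). In 2 members, Mir7067 and Mir8116, the FPKM of all 6 KO libraries lay above those of all 6 WT libraries, as in 0.289% of all genes (for Mir8116 the nearest libraries held the same number of reads), and in no member did they all lie below (0.928% of all genes). Values of 0 in both groups count as overlap. The median difference of the members was 0 at each age, and that of all genes was -0.03 and 0.00.

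Mir7067, a hairpin gene of 63 nt, lies in an intron and ends at its 3′ splice site. It was listed at 0 in all 6 WT libraries. In KO it had 100.3, 54.2 and 47.2 FPKM at 5 months and 50.7, 104.5 and 44.8 FPKM at 8 months. With a step of 50.4 FPKM, the KO values stood for 2, 1, 1, 1, 2 and 1 reads, 8 in all. All 6 KO libraries thus had at least 1 read and no WT library had any, and Mir7067 was the only one of the 16276 genes tested with this pattern (0.00614%). The adjusted p was 1.22e-05 at 5 months, 1.29e-05 at 8 months and 3.91e-07 averaged over both (limma), values that rest on WT groups with a spread of 0 and on the added 0.5 FPKM. An exact permutation test, two-sided, gave p = 0.1 at each age and p = 0.005 with labels permuted within age, the smallest values these designs allow. Of 45 named members given this test, 2 reached the smallest p over both ages. Mir7067 was named for its small p in these same values, so the exact p is unadjusted and adds no separate support.

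With 50 FPKM added in place of 0.5, about the worth of 1 read here, the adjusted p of Mir7067 was 0.1 at 5 months and 0.333 at 8 months, and 0.017 averaged over both.

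Mir8116 (chr5:137735008-137735104, plus strand, 97 nt) lies in an intron of Ache, which encodes acetylcholinesterase, 442 nt from the upstream exon and 240 nt from the downstream one. It was listed at 0 in the 3 WT libraries at 5 months and had 36.2, 39.7 and 46.4 FPKM in KO. At 8 months WT had 22.4, 12.2 and 12.7 FPKM and KO had 74.5, 52.9 and 22.6. In reads by the step of 12.5 FPKM these were 3, 3 and 4 in KO at 5 months, 2, 1 and 1 in WT at 8 months and 6, 4 and 2 in KO at 8 months, 26 in all, the most of any of the 99 members with a step. In FPKM, KO lay above WT at both ages, but at 8 months the nearest libraries, F27 at 22.6 and F1 at 22.4 FPKM, held 2 reads each and were thus tied in reads.

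By limma the adjusted p of Mir8116 was 6.41e-05 at 5 months and 0.000154 averaged over both ages. At 8 months the log2 difference was 1.53 ± 0.37 (SE) with an adjusted p of 0.624. The exact permutation p averaged over ages was 0.005 on FPKM, the smallest possible, and the order of the tied libraries rests on the scaling. Mir8116 was also called between ages in WT (adjusted p = 0.00143, 8 months higher in 3 of 3 libraries) but not in KO (log2 difference 0.14 ± 0.37, adjusted p = 0.896). The difference between the genotype effects at the 2 ages had an adjusted p of 0.049, the only call of that kind among all genes (0.00614%), and 7 of 21 alternatives kept it. At an unadjusted p under 0.05 it had 25 members (7.27%, and 4.68% of all genes). Ache had 28.1, 27.2 and 25.6 FPKM in WT and 30.2, 21.1 and 20.5 in KO at 5 months. Its averaged log2 difference was -0.07 ± 0.11 (adjusted p = 0.761).

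Mir760 (chr3:121996503-121996621, minus strand, 119 nt) lies outside other genes, 8314 nt from Dnttip2. It too was listed at 0 in the 3 WT libraries at 5 months, and had 6.51, 14.9 and 6.26 FPKM in KO. At 8 months it had 5.38, 15.2 and 14.1 FPKM in WT and 14.4, 7.33 and 10.97 in KO, so the groups overlapped. The WT libraries at 5 months were thus the only group without it. The adjusted p was 0.00569 at 5 months, 1 at 8 months and 0.0393 averaged over ages, and 0.00602 for 8 against 5 months in WT (limma). The exact permutation p averaged over ages was 0.055, and 5 of 21 alternatives kept the averaged call. The 5-month call was lost with 10 FPKM added (adjusted p = 0.176, limma) and with the 2 groups alone (adjusted p = 0.0765). Neutrophil markers separated WT from KO at 5 months as given above. So did the sum of erythroid markers, of which 8 of 12 were found (873 to 2601 FPKM in WT and 2661 to 5068 in KO). B cell markers did too, with sums of 34.6 to 43.1 FPKM in WT and 56.7 to 169 in KO. The part of these cells in the 5-month differences of the 3 genes was not tested.

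**Figure D5:**
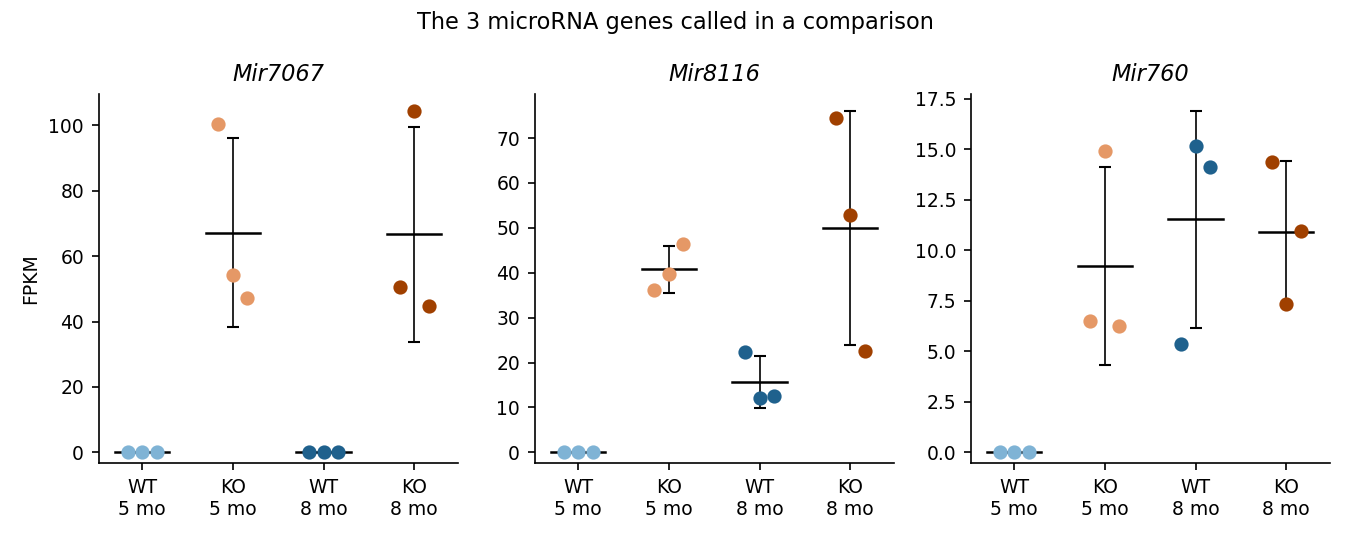
FPKM of Mir7067, Mir8116 and Mir760 in each library (points), with the mean (line) and SD (bars, n = 3) of each group. Mir7067 is listed at 0 in all 6 WT libraries, and Mir8116 and Mir760 in the 3 WT libraries at 5 months.

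Members with the next smallest p at 5 months did not pass the adjusted threshold. Mir1892, on an exon of Sptssa (a subunit of serine palmitoyltransferase), had 150, 53.3 and 67.7 FPKM in KO, against under 0.01 in WT, yet at 8 months it was above 0.01 in F27 alone (114 FPKM). Its adjusted p was 0.147 at 5 months (limma). Mir378b, opposite an intron of Msi2, had 18.4, 40.2 and 17.3 FPKM in KO, against 0, 0 and 19.1 in WT (adjusted p = 0.196). Mir466i, opposite an intron of Cdk13, was seen in 6 of 6 KO libraries (10.7 to 33.96 FPKM) and in 2 of 6 WT libraries (10.7 and 10.9 FPKM), with an adjusted p of 0.159 averaged over ages.

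At 8 months Mir7091, Mir345 and Mir219-2, among the members with the smallest p, did not pass either. Mir7091, which fills an intron of Dnase1l1, had 57.7, 62.0 and 83.4 FPKM in KO, while WT had 26.7, 28.3 and 29.4, or 2, 2 and 3 reads against 1, 1 and 1. Its log2 difference of 1.24 ± 0.23 (SE) had an adjusted p of 0.422, while Dnase1l1 differed by 0.16 ± 0.10. In the other direction, Mir345 and Mir219-2 were low in KO at 8 months. Mir345 had 16.6, 17.1 and 18.8 FPKM in WT, 1 read each, and was listed at 0 in KO (adjusted p = 0.534). Mir219-2, one of the microRNAs known from myelinating glia, had 34.4, 17.9 and 57.7 FPKM in WT and was listed at 0 in KO (adjusted p = 0.785). Mir1943 was named for its p between ages in KO. At 8 months it had 60.5, 24.3 and 74.1 FPKM in WT and 0, 26.0 and 0 in KO, so the groups overlapped (adjusted p = 0.898, limma). At 5 months the picture differed: Mir345 had 1 read, in the KO library F18, and Mir219-2 had 1 read in E4 (WT) and 1 in F18.

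Mir338, in an intron of Aatk and known from myelinating cells, was seen in 5 of 6 WT libraries, with 14.5 to 33.8 FPKM, and in 1 of 6 KO libraries, with 16.6 FPKM (exact permutation p = 0.04 averaged over ages, limma adjusted p = 0.194). These were 1 or 2 reads a library, 9 in all. The exact p was not adjusted: of 45 named members given that test, 5 had 0.05 or less averaged over ages.

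Fewer members were seen in KO at 8 months than in WT of that age or in KO at 5 months. At 0.5 FPKM or more, 123, 108 and 129 members were seen in F5, F6 and F27, against 143, 148 and 139 in WT at 8 months and 145, 136 and 144 in KO at 5 months, with no overlap. In WT at 5 months 120, 128 and 138 were seen, which overlaps the KO libraries at 8 months. The worth of 1 read was 0.989, 1.06 and 0.915 in F5, F6 and F27 and 0.915, 0.952 and 1.02 in F1, F10 and F12, so these overlapped. The same count was not made over all genes, so it is unknown whether the difference was particular to the members. The part of depth in these counts was not tested. The members held 2.65 to 2.77% of all FPKM in KO at 8 months, 2.80 to 3.42% in WT at 8 months and 3.20 to 4.50% in the libraries of 5 months. These shares are of FPKM and not of reads, and they lean on Mir3064 and Mir6236. Without both, the members summed to 7766 to 8183 FPKM in KO at 8 months, 8221 to 9303 in WT at 8 months, 8453 to 9038 in WT at 5 months and 8303 to 9119 in KO at 5 months, so the WT ages overlapped and F18 no longer stood apart. No test was made on these sums over members.

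Between 5 and 8 months, 2 of the 344 members (0.581%) were called in WT, Mir8116 and Mir760, both higher at 8 months, and they were the only 2 of all genes called (0.0123%). At an unadjusted p under 0.05 there were 24 in WT (6.98%, and 7.84% of all genes). WT at 8 months lay wholly above WT at 5 months in 11 members and wholly below in 11, or 3.2% each, beside 10.3% and 8.81% of all genes. In KO no member and no other gene was called by limma (0%), and 16 members had an unadjusted p under 0.05, of which 3 were higher and 13 lower at 8 months (4.65%, and 12.6% of all genes). KO at 8 months lay wholly above KO at 5 months in 3 members (11.1% of all genes) and wholly below in 13 (3.78%, and 4.6% of all genes). The smallest p in KO belonged to Mir7091 (log2 difference 1.2 ± 0.23, adjusted p = 0.289), Mir1943 and Mir324. Mir324, opposite an intron of Acadvl, had 22.3, 71.9 and 20.5 FPKM in KO at 5 months and was listed at 0 in KO at 8 months (adjusted p = 0.31).

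Of 71 microRNA genes listed for the inner ear, nerve, blood or muscle, 65 were found, 25 were members, 5 had less than 0.5 FPKM and 35 were listed at 0 in every library. No member of the list was called in any of the 6 comparisons. Mir96 was seen in F10 alone (12.9 FPKM), and its cluster partners Mir182 and Mir183 were listed at 0 throughout. In all, 11 of the 25 were seen in 1 library, among them Mir140 of cartilage (47.9 FPKM in F19) and the neuronal Mir124a-2 (9.83 FPKM in F18).

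Mirlet7d and Mirlet7e were the most widely seen of the list. Mirlet7d was seen in 11 libraries, with 22.5, 38.1 and 40.1 FPKM in WT and 32.8, 11.2 and 21.2 in KO at 5 months. At 8 months it had 12.6, 19.2 and 21.1 FPKM in WT and 30.8, 66.6 and 0 in KO. Mirlet7e was seen in 8 libraries, with up to 60.2 FPKM, while Mirlet7a-1, Mirlet7c-1 and Mirlet7i were seen in 2 each. Groups overlapped for each of these genes at both ages. Mir29c was seen in 7 libraries, from 9.91 to 88.3 FPKM.

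Of the blood-cell members, Mir142 was seen in 3 libraries, with 50.1 FPKM in E7, 51.6 in F12 and 97.1 in F5, or 1, 1 and 2 reads. Their sums of neutrophil markers were 23379, 4705 and 17171 FPKM, while F19, with 7504, had no Mir142. Mir142b, which overlaps Mir142 on the other strand, was seen in all 12 libraries and was highest in E7 (123 FPKM) and F5 (102 FPKM), against 7.42 to 53.2 FPKM in the others. Mir223, known from myeloid cells, was above 0.5 FPKM in E3 alone (6.99 FPKM). It lies on an exon of F630028O10Rik, which was seen in every library. That host had 1.17 to 3.71 FPKM in WT and 8.13 to 55.0 in KO at 5 months (adjusted p = 0.2, limma). At 8 months it had 2.02 to 10.8 FPKM in WT and 3.23 to 33.9 in KO. Its highest values were in E7 and F5. In whole cochleae, more cells of a type and more RNA per cell cannot be told apart. The part of the neutrophil level in Mir142, Mir142b and F630028O10Rik was not tested.

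Of the 4 long host transcripts, Mir22hg had 13.5 to 21.2 FPKM, Mirlet7bhg 4.82 to 11.2, Mir143hg 4.77 to 7.26 and Mir17hg 2.77 to 5.16 FPKM over the 12 libraries. The averaged log2 difference of KO minus WT was 0.02 ± 0.08 (SE) for Mir22hg, -0.26 ± 0.13 for Mirlet7bhg, -0.04 ± 0.07 for Mir143hg and 0.13 ± 0.13 for Mir17hg, and none passed (adjusted p from 0.324 to 0.911, limma). Of the hairpins they carry, Mir145 was seen in F10 and F27, Mir22 in E7, F12 and F5, and Mir18, Mir19a and Mir20a of the Mir17hg cluster in 1 library each. The median SE of the KO minus WT difference at one age was 1.44 for the members and 0.13 for all genes tested.

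All 33 genes of a list for microRNA processing and its regulation were measured, and none was called in any comparison. At an unadjusted p under 0.05 (limma), 1 was higher (Lin28a) and 1 lower (Tsnax) in KO at 5 months and 1 lower (Smad1) at 8 months. Of all genes, 18.1% had such a p at 5 months and 5.17% at 8 months, in either direction. Their median log2 difference of KO minus WT was -0.04 at 5 months and -0.03 at 8 months, beside -0.03 and 0.00 for all genes. Over the 12 libraries Drosha had 13.7 to 17.3 FPKM, Dgcr8 9.53 to 12.5, Xpo5 11.97 to 15.9 and Dicer1 9.37 to 13.2 FPKM. Ago2 was the most uneven of these 5, from 2.46 FPKM in F6 to 9.35 in E7. Averaged over ages, their log2 differences of KO minus WT were -0.03 for Drosha, 0.08 for Dgcr8, 0.01 for Xpo5, -0.07 for Dicer1 and -0.04 for Ago2, with adjusted p from 0.51 to 0.941 (limma).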

How the data were processed

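The authors made stranded polyA libraries from cochlear RNA, sequenced single ends of 50 bases and, per the submitters' processing notes, used TopHat2 2.0.10, Bowtie 1.0.0, SAMtools 0.1.19 and Cufflinks 2.2.1 on mm9. The deposited table holds the authors' FPKM per gene and library. Many decimal points were lost. They were put back so that each group's mean equals the group FPKM that the authors deposited from Cuffdiff (relative tolerance 2e-05), which changed 55.3% of values. For 14 of 95804 gene and group pairs no placing was found, and those 6 genes were left out. The fold changes and p-values of the authors' own comparisons were not used. Depth is unknown.

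Genes averaging 0.5 FPKM or more were tested as log2(FPKM + 0.5) in 1 limma 3.58.1 fit (R 4.3.3) of the 4 groups with a variance trend, with Benjamini-Hochberg adjustment over 16276 genes and a threshold of 0.05. All 344 members passed that filter, since it equals the rule that chose them. Named were members called, the 12 of highest level, those of smallest p (5 for each KO minus WT comparison, 3 for each age comparison), those of the list of known microRNA genes, 3 on each side of the limit, the host or nearest genes and 5 microRNA processing genes. The long host transcripts, Mir142b and the remaining genes were named after their values were seen. The step of 1 read was sought among multiples up to 6, with 1 read in at least 2 libraries. Python 3.11.15 with NumPy 2.4.6, pandas 2.3.3 and Matplotlib 3.10.9 was used otherwise. RefSeq hairpins matched NCBIM37 exactly at the authors' coordinates for 863 of 877 microRNA genes. The restoring of decimals and the fit were tested on simulated data. The members and the gene lists were chosen with earlier results of these data known. Alternatives were pseudocounts, filters, scalings, no variance trend, 2 groups alone and each library left out. A pseudocount of 50 and leaving out F12 and F5 together were added after seeing the data. The values of 1 host gene are not reported here.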

Additional observations from a re-analysis of the deposited data

Results flagged for a closer look

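Mir8116, in an intron of Ache, was the only gene of 16276 whose genotype difference changed between ages by a direct test of that change (limma, adjusted p = 0.049). At 5 months KO exceeded WT in 3 of 3 libraries, and at 8 months the lowest KO and the highest WT library held 2 reads each. The 3 WT libraries at 5 months were listed at 0, and those at 8 months had 12.2 to 22.4 FPKM, or 1 to 2 reads. The size of the change on the log scale depends on the 0.5 FPKM added to the zeros and is not given. Of 21 alternatives, 7 kept an adjusted p under 0.05, with a range of 0.00124 to 0.881. Groups of 3 libraries are too small for a test of single outlying libraries.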

How the results depend on the processing

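Mir7067 kept its calls under all alternatives but one. With 50 FPKM added to each value, near the worth of 1 read, the count of microRNA genes called fell to 0 for KO minus WT at 5 months, 0 at 8 months, 1 averaged over ages (Mir7067), 0 for the change of the genotype difference with age and 0 for ageing in WT. With 10 FPKM added it was 0 for both of the last. That change of the genotype difference also had 0 calls with 1 FPKM added, with all genes above a mean of 0 tested, with median ratio scaling and with no variance trend, and 2 with 0.1 FPKM added. With the 2 compared groups alone there were 3 calls at 8 months and 1 for ageing in KO. Without F12 and F5 there were 3 at 8 months. Leaving out each library in turn gave 3 to 5 calls at 5 months, 1 to 3 at 8 months, 2 to 4 averaged over ages, 0 to 3 for the change of the genotype difference, 1 to 4 for ageing in WT and 0 to 2 for ageing in KO.

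Single libraries decided several calls. The averaged call of Mir760 was lost without any one of 11 libraries (adjusted p up to 0.127, limma; F1 was the exception), its 5-month call with 10 FPKM added (0.176) or the 2 groups alone (0.0765), and its ageing call in WT without E1 (0.0578) or E3 (0.0659). Mir1892 was called at 5 months without F27 (adjusted p = 1.29e-05, limma) and Mir378b without E4 (0.00345). At 8 months Mir345 was called without F18 (1.36e-07) and Mir7091 without E4 (0.0196). For Mir1892, Mir378b and Mir345 the library left out held the only value of at least 0.5 FPKM in its group, so the spread within that group fell. Without F18 the small p of Mir345 rests on 1 read in each of F1, F10 and F12. The change of the genotype difference of Mir8116 was lost without any one of 8 libraries (adjusted p from 0.0645 to 0.294). The cause was not tested. No result changed direction. No paired analysis was possible because the labels give each library an animal code and no number shared between groups. Depth is unknown. The 99 microRNA genes with a step had a median of 4 reads over all libraries, but the rule for a step keeps to genes with few reads.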
